A study of Homo sapiens with 4 samples.

Results

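The genes described here mark the epithelial or the mesenchymal state of a cell: CDH1, OCLN, CLDN4, ESRP1, ESRP2 and GRHL2 on the epithelial side, and CDH2, VIM, ZEB1 and SNAI2 on the mesenchymal side. They were taken as a list of 10 gene symbols, and 9 of them had a probe set among the 17687 named genes on the array, each 1 probe set. ESRP2 was not analysed here. The study took RNA from Li-7 and HEP-G2 cells, both established human liver cancer lines, and hybridised it to Affymetrix arrays, with 1 array for each of 4 groups. The groups were Li-7 with the miR-4730 mimic, Li-7 with the negative control oligonucleotide, HEP-G2 with the mimic, and HEP-G2 with the negative control. The mimic was given at 3 nM, 24 h after seeding, by lipid transfection. The sources used here give no dose for the control. Li-7 was grown in RPMI-1640 and HEP-G2 in DMEM, so line and medium cannot be told apart.

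Epithelial cells are held together by adherens junctions, built on E-cadherin (CDH1), and by tight junctions, which contain occludin (OCLN) and claudins such as CLDN4. In the epithelial-mesenchymal transition, repressors of the SNAI and ZEB families bind E-box motifs in epithelial genes, and cells gain vimentin (VIM) and N-cadherin (CDH2). GRHL2 and the splicing factors ESRP1 and ESRP2 keep the epithelial programme. Liver cells are a special case, since hepatocytes carry both E-cadherin and N-cadherin.

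The mimic copies a microRNA whose seed, bases 2 to 8 and shown in capitals, sets which transcripts it pairs with, and the sequence is printed because it is the agent that separates mimic from control arrays. The mature sequence is RefSeq's (GRCh38.p14, plus strand).
hsa-miR-4730, chr17:80419427-80419449: cUGGCGGAgcccauuccaugcca
Of the 2370 mature microRNA names in the same table, 1 has this seed, miR-4730 itself. Transcripts of the listed genes were not searched for it.

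Values are given on the deposited log2-like scale, on which a difference of 1 is 2-fold. Array medians ran from 7.03 to 7.17. The value that 95% of the 612 negative control probe sets stayed under, used here as the background limit, was 7.99 on the Li-7 mimic array, 8.72 on the Li-7 control array, 8.20 on the HEP-G2 mimic array and 8.35 on the HEP-G2 control array. Of 8 hepatocyte markers with a probe set, 1 (SERPINA1) lay above the limit on the Li-7 mimic array and 0 on the Li-7 control array, against 7 on each HEP-G2 array. Their summed value was 47.5 and 45.1 on the Li-7 mimic and control arrays and 112 and 107 on the HEP-G2 mimic and control arrays. ALB and AFP were under the limit on both Li-7 arrays, so the liver markers go with the label in HEP-G2 and not in Li-7. Among 6 fibroblast and stellate cell markers 1 was above it on each Li-7 array (COL1A2) and 2 on each HEP-G2 array (COL1A2 and ACTA2). All 4 endothelial markers were under it on all 4 arrays, and of 4 blood markers CD68 alone was above it.

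The first comparison was between the lines, over both treatments. Li-7 was higher than HEP-G2 for genes of both sides: E-cadherin, occludin and claudin 4 were higher, and so were vimentin and ZEB1. N-cadherin differed by less than its error. ESRP1, GRHL2 and SNAI2 stayed under the background limit on all 4 arrays, and OCLN, CLDN4, CDH2 and ZEB1 were above it on all 4. Of the 17687 named genes, 52.0% were under it and 31.4% above it on all 4. The difference was tested as the line term of a limma model over 12381 genes with line and treatment. Each line has 2 arrays, 1 per treatment, so the p-values do not measure a spread between replicate cultures. They rest on how far the line difference disagrees between the 2 treatments, and mostly on a variance pooled over all genes. The pooled variance has 5.85 prior degrees of freedom, against 1 residual degree per gene. In bulk RNA, fewer cells carrying a transcript and less of it per cell cannot be told apart.

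CDH1, which makes E-cadherin, stood at 9.98 on the Li-7 mimic array and 9.79 on the Li-7 control array, against 7.44 and 6.77 on the HEP-G2 mimic and control arrays. Both Li-7 values were above the background limit and both HEP-G2 values under it, and the lines did not overlap. The fitted difference was 2.78 (SE 0.26, limma adjusted p = 0.000184). Since HEP-G2 has only a bound, CDH1 was at least 3.05-fold higher in Li-7, taking the mean of the Li-7 arrays against the mean background limit of the HEP-G2 arrays.

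Occludin (OCLN) is a membrane protein of the tight junction. Its values were 12.80 and 12.19 on the Li-7 mimic and control arrays, and 11.56 and 10.67 on the HEP-G2 mimic and control arrays. All 4 were above the limit, both Li-7 values were above both HEP-G2 values, and the difference of 1.38 (SE 0.25, limma adjusted p = 0.00396) is 2.61-fold. A pseudogene, OCLNP1, carries a related sequence, and the sources used here do not say whether the probes tell them apart. The call was lost when treatment was left out of the model (adjusted p = 0.0505).

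Claudin 4 (CLDN4), a sealing protein of tight junctions, showed a wider gap. It stood at 12.94 and 12.39 on the Li-7 mimic and control arrays, against 10.89 and 9.67 on the HEP-G2 mimic and control arrays. The lines did not overlap, all values were above the limit, and the difference of 2.39 (SE 0.28, limma adjusted p = 0.000494) is 5.23-fold.

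GRHL2, a transcription factor that activates junction genes, was at 7.36 and 7.86 on the Li-7 mimic and control arrays, and at 5.95 and 5.96 on the HEP-G2 mimic and control arrays. Li-7 was higher by 1.65 (SE 0.26, limma adjusted p = 0.00218), but all 4 values lay under the background limit, so no fold is given. Between 92.6% and 93.5% of negative control probe sets lay below GRHL2 in Li-7, and between 80.6% and 82.2% did in HEP-G2. ESRP1, which drives epithelial splicing patterns, was at 3.37 and 4.09 on the Li-7 mimic and control arrays and 3.13 and 2.90 on the HEP-G2 mimic and control arrays. At most 49.0% of negative controls lay below it on any array, and it fell short of the filter for testing. Without a filter its line difference of 0.71 had a limma adjusted p of 0.114.

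Vimentin (VIM), the intermediate filament of mesenchymal cells, had the widest gap of the listed genes. It stood at 15.42 and 15.13 on the Li-7 mimic and control arrays, against 5.49 and 4.16 on the HEP-G2 mimic and control arrays. In HEP-G2 it was under the background limit, with 76.1% (mimic) and 46.1% (control) of negative controls below it. HEP-G2 therefore has only a bound, and VIM was at least 128-fold higher in Li-7. VIM passed the filter for testing through its Li-7 values alone, so no p is given for its line difference.

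ZEB1, a zinc finger repressor of CDH1, was well above the limit everywhere. Its values were 12.90 and 12.12 on the Li-7 mimic and control arrays, and 11.70 and 11.34 on the HEP-G2 mimic and control arrays. The lines did not overlap, and the difference of 0.99 (SE 0.26, limma adjusted p = 0.0187) is 1.99-fold. The call was lost when treatment was left out of the model (adjusted p = 0.0936). SNAI2, or Slug, another repressor of CDH1, was at 5.35 and 4.91 on the Li-7 mimic and control arrays and at 4.02 and 4.09 on the HEP-G2 mimic and control arrays. All were under the limit and under the filter for testing. Without a filter its difference of 1.08 had a limma adjusted p of 0.0160, but with all values under the limit no direction is drawn from it.

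N-cadherin (CDH2) did not follow vimentin. It stood at 12.17 and 11.18 on the Li-7 mimic and control arrays, and at 11.93 and 11.06 on the HEP-G2 mimic and control arrays, all above the limit. The lines overlapped, and the difference of 0.18 (95% interval -0.40 to 0.76, limma adjusted p = 0.584) was smaller than the change between treatments within either line. After median centring, which shifts the line difference of every gene by -0.18, it was -0.001.

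**Figure D1:**
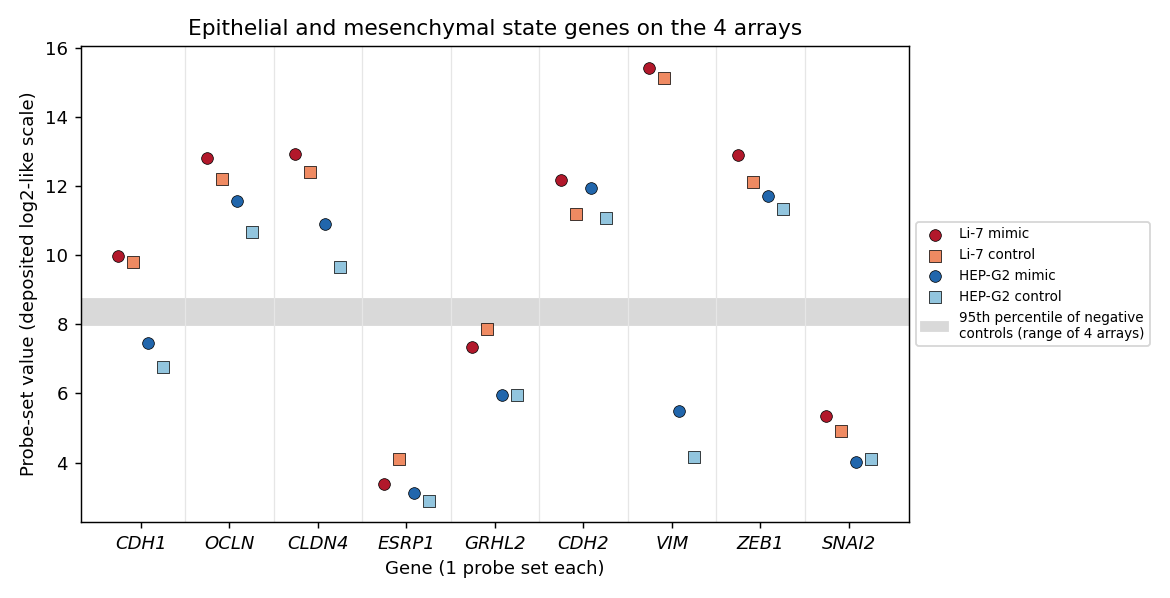
Deposited value of each of the 9 measured genes (horizontal axis) on the 4 arrays, in log2-like units (vertical axis), with circles for mimic and squares for control arrays. The grey band is the range, over the arrays, of the 95th percentile of negative control probe sets (7.99 to 8.72). VIM lies near 15 in Li-7 and under the band in HEP-G2, CDH1 crosses the band between the lines, and ESRP1, GRHL2 and SNAI2 lie under it on all 4 arrays.

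Of the 7 listed genes that passed the filter, 6 were called higher in Li-7 and 0 lower. Among the 12381 genes tested 44.9% were called, 24.3% higher and 20.7% lower. This is a description, since VIM entered the test only through the line in which it is high and the genes were chosen with earlier results of these data known. The same holds for 10 of the 63 tested genes of the further lists described below, whose mean in 1 line was under the filter (4.905), and no difference is supported here by their line p-values. In all, 8 of the 9 measured genes had both Li-7 values above both HEP-G2 values, against 29.2% of all named genes. CDH2 was the exception. Of the 8, ESRP1, GRHL2 and SNAI2 were under the background limit on all arrays, so their order between the lines is uncertain. This also holds for GRHL2 among the 6 called. CDH1 and VIM were under the limit on both HEP-G2 arrays. Among the 4 genes above the limit on all arrays, the gap between the lines was smaller on the mimic arrays than on the control arrays for OCLN (1.24 on mimic and 1.52 on control arrays) and CLDN4 (2.05 and 2.73), and larger for ZEB1 (1.21 and 0.77) and CDH2 (0.24 and 0.12). These differences between gaps carry no test.

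**Figure D2:**
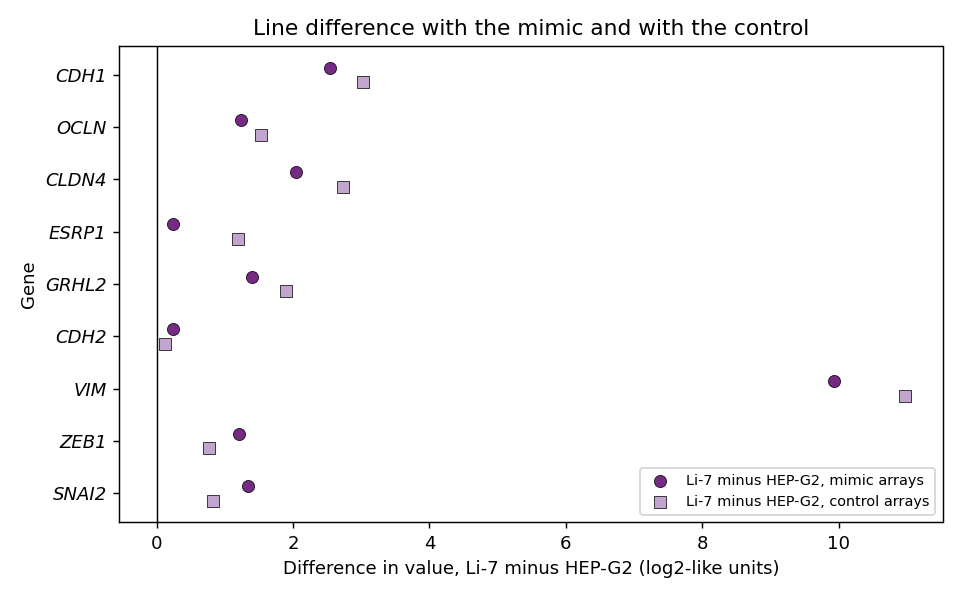
Difference in value between the lines (Li-7 minus HEP-G2, log2-like units, horizontal axis) for each gene (vertical axis), from the 2 mimic arrays (circles) and from the 2 control arrays (squares). Every point is at or above 0.12. CDH2 lies closest to 0, and VIM lies near 10, with its HEP-G2 values under the background limit.

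The second comparison was mimic against control. None of the 7 listed genes tested passed the limma test for a change common to both lines. Over all genes tested, 0.42% passed (52 of 12381), 0.0808% higher and 0.339% lower. At an unadjusted p under 0.05 there were 4 of the 7 (CDH2, CLDN4, OCLN and VIM), all higher with the mimic, against 19.5% of all genes tested. Of the 9 measured genes, 6 were higher with the mimic in both lines (32.7% of all named genes were), GRHL2 was lower in both (28.7% were), and ESRP1 and SNAI2 had opposite signs (38.6% had). The 6 were CDH1, OCLN and CLDN4 of the epithelial side and CDH2, VIM and ZEB1 of the mesenchymal side. For CDH1 and VIM both HEP-G2 values were under the background limit, so their signs there are uncertain. The p-values, SEs and intervals of the mimic test do not measure a spread between replicate cultures, since no group had replicate arrays. Those errors rest on how far the mimic change disagrees between the lines, and mostly on the variance pooled over all genes.

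CDH2 had the largest mean change with the mimic among the listed genes, 0.93 (SE 0.24, 95% interval 0.34 to 1.51, limma adjusted p = 0.126). It was 0.98 higher with the mimic in Li-7 and 0.87 higher in HEP-G2, so the lines were alike in size. The mean change is 1.90-fold, and 96.3% of genes tested had a lower one.

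CLDN4 was 0.55 higher in Li-7 and 1.23 higher in HEP-G2 with the mimic (mean 0.89, 95% interval 0.23 to 1.54, limma adjusted p = 0.162). OCLN was 0.60 and 0.88 higher (mean 0.74, 95% interval 0.15 to 1.34, adjusted p = 0.181). All values behind these 2 tight junction genes were above the background limit. CDH1 was 0.19 higher in Li-7 and 0.68 higher in HEP-G2, where both values were under the limit (mean 0.43, 95% interval -0.19 to 1.05, adjusted p = 0.415).

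ZEB1 was 0.79 higher with the mimic in Li-7 and 0.35 higher in HEP-G2 (mean 0.57, 95% interval -0.04 to 1.18, limma adjusted p = 0.283). VIM was 0.29 higher in Li-7, and its HEP-G2 difference of 1.33 was between 2 values under the background limit (mean 0.81, 95% interval 0.06 to 1.56, adjusted p = 0.228). GRHL2 differed by -0.50 (Li-7) and -0.003 (HEP-G2), under the limit throughout (mean -0.25, 95% interval -0.87 to 0.37, adjusted p = 0.648).

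Taken line by line, differences of single arrays carry no test. No listed gene differed by 2-fold in Li-7, where 2.93% of all named genes were at least 2-fold higher and 3.16% lower. In HEP-G2, CLDN4 and VIM were at least 2-fold higher, where 4.74% of all named genes were higher and 4.94% lower by that much, and CLDN4 alone of the pair lay above the background limit. CDH2 was just short of 2-fold in Li-7 and reached it there after quantile normalization. At 1.5-fold, 4 of the 9 measured genes differed in Li-7 (21.7% of all named genes) and 5 in HEP-G2 (29.1%).

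**Figure D3:**
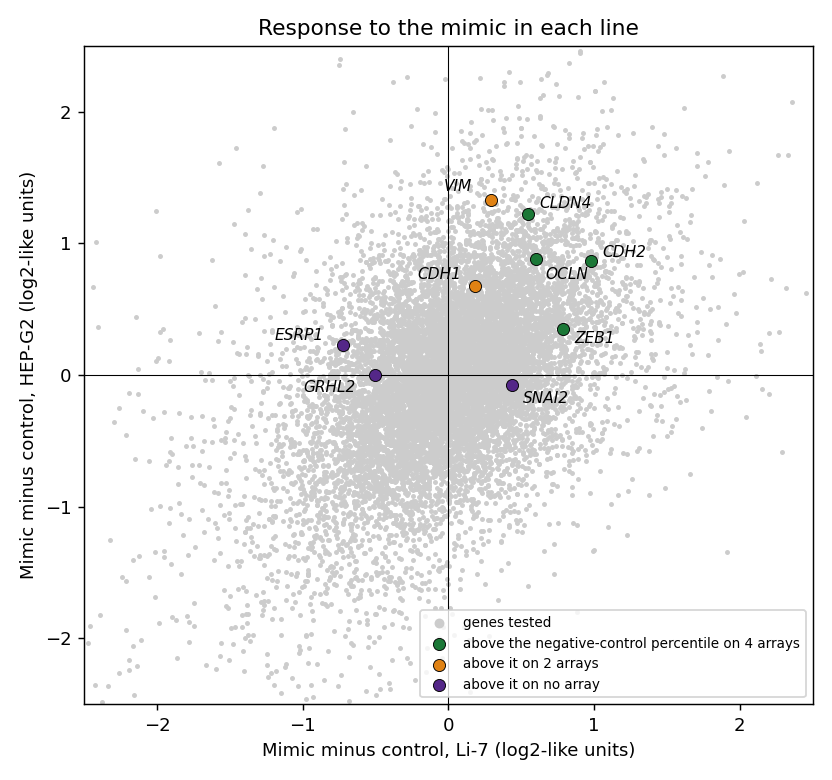
Mimic minus control in Li-7 (horizontal axis) and in HEP-G2 (vertical axis), in log2-like units, for the 9 listed genes (labelled) over the genes tested (grey). Colours give the number of arrays on which a gene is above the background limit, and 59 genes outside the axes are not drawn. CDH1, OCLN, CLDN4, CDH2, VIM and ZEB1 lie to the upper right of the origin, within the cloud of all genes.

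The upstream sequence of OCLN, CLDN4 and VIM, genes of both sides, is shown to mark the E-box CACCTG, read CAGGTG on the other strand. The ZEB family binds this motif. Whether ZEB1 acts on these genes in these cells was not tested. The windows are the 250 bases before the first listed start of each gene, from RefSeq (GRCh38.p14, plus strand), with the searched motif, CACCTG or CAGGTG, in capitals.
OCLN, chr5:69492297-69492546: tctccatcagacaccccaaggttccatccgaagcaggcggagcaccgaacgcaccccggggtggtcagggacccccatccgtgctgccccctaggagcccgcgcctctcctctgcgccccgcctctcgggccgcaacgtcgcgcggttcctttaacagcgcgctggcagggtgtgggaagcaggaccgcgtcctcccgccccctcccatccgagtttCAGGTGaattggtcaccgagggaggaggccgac
CLDN4, chr7:73830746-73830995: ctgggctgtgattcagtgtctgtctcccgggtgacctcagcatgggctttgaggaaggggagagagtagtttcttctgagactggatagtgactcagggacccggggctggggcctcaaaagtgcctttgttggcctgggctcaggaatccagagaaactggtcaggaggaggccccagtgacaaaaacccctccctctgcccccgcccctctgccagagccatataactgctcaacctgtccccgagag
VIM, chr10:17227991-17228240: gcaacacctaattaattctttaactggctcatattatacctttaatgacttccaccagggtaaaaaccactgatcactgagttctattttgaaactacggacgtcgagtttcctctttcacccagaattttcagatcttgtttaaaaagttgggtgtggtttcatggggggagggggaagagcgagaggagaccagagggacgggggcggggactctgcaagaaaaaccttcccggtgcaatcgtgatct
OCLN holds 1 copy, starting 33 bases before that start, and the CLDN4 and VIM windows hold none of these letters. Of the 5 listed genes with windows in the table (13 windows, several starts for OCLN, CDH2 and ZEB1), OCLN and ZEB1 have the motif in at least 1 window. It is in 4 of these 13 windows, several of them of the same gene, and in 17.5% of all 35116 windows of this length. A match is a description of the letters and says nothing here of binding.

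Other junction and polarity genes divided between the lines, unlike CDH1, OCLN and CLDN4. Of 23 tested (30 on the list, 27 with a probe set), 9 were called higher in Li-7 and 5 lower, where 24.3% of all genes tested were called higher and 20.7% lower. The median line difference was -0.03 against 0.03 over all genes tested. CLDN2, a pore-forming claudin, was 3.14 higher in Li-7 (SE 0.41, limma adjusted p = 0.000870) and CLDN1, a sealing claudin, 2.24 higher (SE 0.25, adjusted p = 0.000419). DSP, the desmosome plaque protein desmoplakin, differed by -3.11 (SE 0.29, adjusted p = 0.000187) and was lower in Li-7. CLDN6, a claudin of embryonic epithelia, is also among the 5, but it passed the filter through HEP-G2 alone, only its HEP-G2 mimic value of 8.48 was above the background limit, and the call was lost with treatment left out of the model (adjusted p = 0.0658).

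With the mimic, 12 of these 23 were higher in both lines and 2 lower in both, where 34.1% and 31.0% of all genes tested were. The median change was 0.22 against 0.03 over all genes tested. In the limma test 0 passed, and 5 had an unadjusted p under 0.05 (19.5% of all genes tested had). The largest mean changes were those of PARD6B, of the PAR polarity complex (Li-7 1.28, HEP-G2 1.44, adjusted p = 0.0738), CLDN6 (-0.05 and 2.69, adjusted p = 0.272), PARD3, its partner (1.09 and 0.74, adjusted p = 0.133), and JUP, the junction protein plakoglobin (0.73 and 0.90, adjusted p = 0.157). PARD6B was above the background limit on all 4 arrays. It passed with an intensity trend in the variance (adjusted p = 0.0173), as did 411 of 12381 genes. It also passed with either stricter filter on low values (adjusted p = 0.0307 and 0.0432). Under those filters 366 of 8844 and 200 of 8497 genes passed. PARD6B did not pass after cyclic loess or with the unmoderated t statistic.

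Of 9 epithelial transcription and splicing regulators tested beside GRHL2, 5 were called higher in Li-7 and 1 lower, where 24.3% and 20.7% of all genes tested were. The 1 was FOXA1 (-0.95, SE 0.25, limma adjusted p = 0.0191), whose call was lost with treatment left out of the model (adjusted p = 0.127). GRHL1 (-0.51, adjusted p = 0.265), FOXA2 (-0.50, adjusted p = 0.170) and OVOL2 (0.01, adjusted p = 0.966) did not pass and were under the background limit on all arrays. EHF and ELF3, epithelial ETS factors, KLF5, a factor of proliferating epithelium, and RBM47, an RNA-binding protein, were above the limit on both Li-7 arrays and under it on both HEP-G2 arrays. EHF was at 12.07 and 12.59 on the Li-7 mimic and control arrays, against 3.25 and 3.52 on the HEP-G2 mimic and control arrays, at least 16.6-fold higher in Li-7. The bounds were at least 38.2-fold for KLF5 (adjusted p = 2.4e-05), 11.9-fold for RBM47 (adjusted p = 2.49e-05) and 3.05-fold for ELF3. EHF, ELF3 and KLF4, the other gene called higher, passed the filter through Li-7 alone, and KLF4 was under the limit on all arrays. The largest mean changes with the mimic, which did not pass, were KLF5 (Li-7 0.15, HEP-G2 1.84), FOXA1 (-0.58 and -0.82), GRHL1 (0.06 and 1.28) and FOXA2 (0.21 and 0.76), with adjusted p between 0.197 and 0.369. At an unadjusted p under 0.05 there were 2 of the 9, against 19.5% of all genes tested.

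The transition transcription factors were mostly dim. Of 11 with a probe set, 5 passed the filter, and 4 of those were under the background limit on all 4 arrays. Over all genes tested, 3884 of 12381 were. TCF3, an E-box binding factor, was above it throughout, at 9.42 and 9.85 on the Li-7 mimic and control arrays and 9.65 and 10.42 on the HEP-G2 mimic and control arrays (line adjusted p = 0.242). SNAI1, or Snail, was the only one of the 5 called between the lines, where 44.9% of all genes tested were called. It had 4 values between 4.55 and 6.69, all under the limit, and passed the filter through HEP-G2 alone, so no direction is drawn from it. TCF4 (0.88, adjusted p = 0.0511), TWIST2 (-0.65, adjusted p = 0.0680) and TWIST1 (-0.05, adjusted p = 0.886) did not pass, though TWIST2 did after median centring (adjusted p = 0.0289) and TCF4 after cyclic loess (adjusted p = 0.0472). With the mimic 0 of the 5 passed and 1 had an unadjusted p under 0.05 (19.5% of all genes tested had), the largest mean changes being those of TCF3 (-0.60) and TCF4 (-0.57).

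Mesenchymal and contractile genes did not go with vimentin as a group. Of 10 tested (16 on the list, 14 with a probe set), 7 were called lower in Li-7 and 3 higher, where 20.7% and 24.3% of all genes tested were. The median line difference was -2.92, against 0.03 over all genes tested. SPARC, 1 of the 7, was under the background limit on all arrays and passed the filter through HEP-G2 alone. Those lower included LOX, which crosslinks collagen and elastin, at 7.98 and 6.01 on the Li-7 mimic and control arrays, against 13.32 and 12.86 on the HEP-G2 mimic and control arrays, at least 26.6-fold (limma adjusted p = 2.65e-05). ACTA2, smooth muscle actin, was also lower, at least 6.81-fold (adjusted p = 3.69e-05), and TAGLN, the actin-binding protein transgelin, differed by -3.56 (SE 0.27, adjusted p = 6.76e-05), with 1 of its 2 Li-7 values, the control, under the background limit. The rest of the 7 were above the limit on all 4 arrays. They were FN1 (-3.78), MYL9 (-3.39) and CALD1 (-1.51), with limma adjusted p of 3.19e-05, 6.48e-05 and 0.00241. The CALD1 call was lost with treatment left out of the model (adjusted p = 0.0691). Those higher in Li-7 with VIM were AXL, a receptor tyrosine kinase (5.65, SE 0.26, adjusted p = 7.48e-06, with its HEP-G2 control value under the limit), S100A4, a calcium-binding protein (at least 4.81-fold, adjusted p = 8.34e-05), and TPM1, a tropomyosin (2.70, SE 0.24, adjusted p = 0.000152), which is outside the naming rule and completes the count.

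With the mimic, 9 of these 10 were higher in both lines, with a median change of 0.89 (Li-7 0.88, HEP-G2 0.95), against 34.1% and a median of 0.03 over all genes tested. In the limma test 0 passed, and 7 had an unadjusted p under 0.05, against 19.5% of all genes tested. With an intensity trend in the variance, TAGLN, AXL, CALD1 and TPM1 passed (adjusted p between 0.0450 and 0.0481). Over all genes tested, 411 of 12381 passed with the trend, 158 of them higher with the mimic. None of the 4 passed after cyclic loess or with the unmoderated t statistic. TAGLN and AXL also passed with a filter at the median gene (limma adjusted p = 0.0484 and 0.0485), where 366 of 8844 genes did. They did not with genes kept above the background limit on at least 1 array (adjusted p = 0.0628 for both). The largest mean changes were LOX (Li-7 1.97, HEP-G2 0.47, limma adjusted p = 0.161), TAGLN (mean 1.19, adjusted p = 0.0998), AXL (0.92 and 1.34, adjusted p = 0.0998) and CALD1, the actin regulator caldesmon (0.98 and 1.07, adjusted p = 0.108). CALD1 was above the background limit on all 4 arrays, TAGLN and AXL on 3, and LOX on the HEP-G2 arrays only. Of the others higher in both lines, SPARC was under the limit on all arrays and ACTA2 on both Li-7 arrays. S100A4 was the exception in sign, with 1.04 for Li-7 and -0.73 for HEP-G2. Both HEP-G2 values of S100A4 (4.91 with the mimic, 5.64 with the control) were under the limit, so that sign is uncertain.

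Among other cadherins, 3 of 5 tested were called higher in Li-7, where 24.3% of all genes tested were. CDH6, a kidney and embryonic cadherin, stood at 11.39 and 10.90 on the Li-7 mimic and control arrays, against 4.34 and 4.41 on the HEP-G2 mimic and control arrays, at least 7.30-fold higher, and it passed the filter through Li-7 alone. CDH17, the liver-intestine cadherin, was at 9.51 and 8.49 on the Li-7 mimic and control arrays and at 5.26 and 4.65 on the HEP-G2 mimic and control arrays (limma adjusted p = 2.9e-05). Its Li-7 mimic value alone was above the limit, so no fold is given. CDH24 was at least 2.08-fold higher (adjusted p = 0.00408), and CDH3 (-0.09, adjusted p = 0.814) and CDH15 (0.16, adjusted p = 0.633) did not pass and were under the limit on all arrays. With the mimic 4 of the 5 were higher in both lines (34.1% of all genes tested were), 0 passed and 1 had an unadjusted p under 0.05 (19.5% had), CDH17 showing the largest mean change (Li-7 1.02, HEP-G2 0.62, adjusted p = 0.163).

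Of 7 genes whose transcripts ESRP proteins are known to splice, 5 were called higher in Li-7 and 0 lower, where 24.3% and 20.7% of all genes tested were. CD44, the hyaluronan receptor, was at 14.02 and 13.60 on the Li-7 mimic and control arrays, against 6.00 and 5.31 on the HEP-G2 mimic and control arrays, at least 46.3-fold higher (limma adjusted p = 1.95e-06). ENAH, an actin regulator (1.41, adjusted p = 0.00456), and SLK, a kinase (1.16, adjusted p = 0.00783), were above the limit on all arrays, but both calls were lost with treatment left out of the model (adjusted p of 0.0637 and 0.0582). FGFR2 was under the limit throughout and passed the filter through Li-7 alone. After the mimic, 6 of the 7 were higher in both lines (34.1% of all genes tested were), 0 passed and 2 had an unadjusted p under 0.05 (19.5% had), ENAH showing the largest mean change (Li-7 0.60, HEP-G2 1.11, adjusted p = 0.161). Each value stands for a gene's whole probe set and carries no splice form.

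Simple keratins, the epithelial counterpart of vimentin, were called higher in Li-7 for 4 of 4, where 24.3% of all genes tested were. KRT19 stood at 14.61 and 14.84 on the Li-7 mimic and control arrays, against 11.66 and 9.07 on the HEP-G2 mimic and control arrays (difference 4.36, SE 0.59, limma adjusted p = 0.00107). KRT7 (1.73), KRT18 (1.23) and KRT8 (0.85) were called with smaller differences (adjusted p of 0.00165, 0.00934 and 0.0354), and all values were above the limit. The KRT8 call was lost after median centring (adjusted p = 0.0795) and with treatment left out of the model (adjusted p = 0.0786). With the mimic 0 passed, also at an unadjusted p under 0.05, and KRT19 differed by -0.23 in Li-7 and by 2.59 in HEP-G2 (adjusted p = 0.323).

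**Figure D4:**
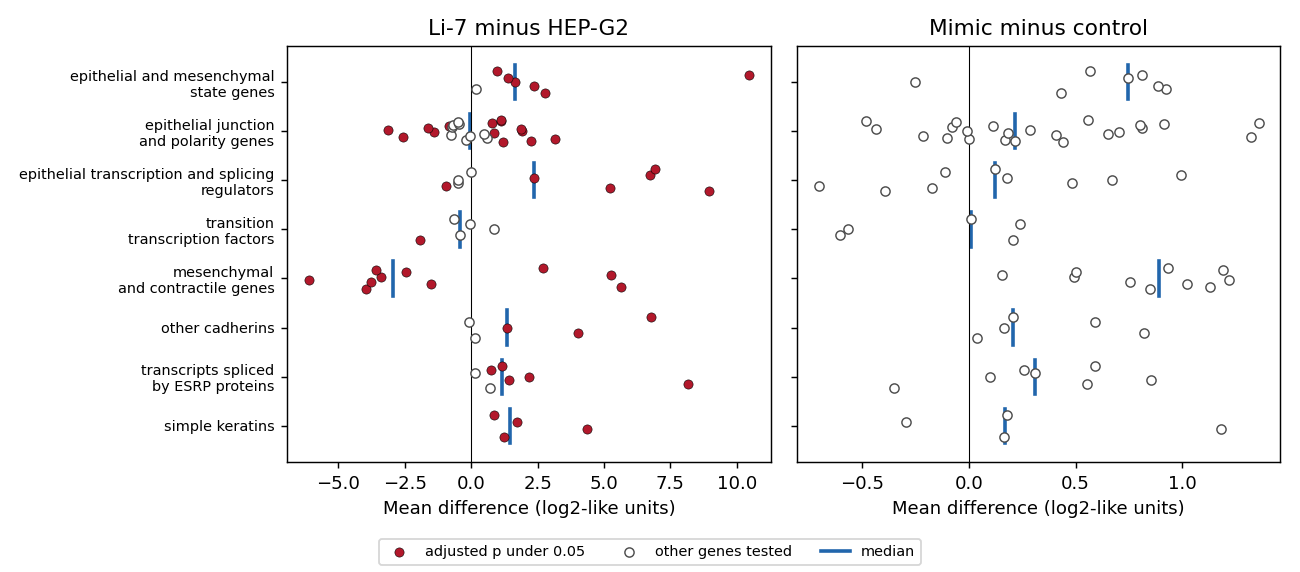
Mean line difference (left, Li-7 minus HEP-G2) and mean mimic change (right, mimic minus control) in log2-like units (horizontal axes) for each gene tested, by list (vertical axis), with filled points for an adjusted p under 0.05 and bars for medians. On the left the mesenchymal and contractile genes fall on both sides of 0 with a median of -2.92, and on the right no point is filled.

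Genes with the most similar pattern were found by the distance between the 4 values after centring each gene on its mean, over the 4 arrays. PTPRF was the nearest to OCLN (distance 0.04), followed by ITGB1 (0.11) and MACF1 (0.12). COL18A1 was nearest to CDH2 (0.02), DYNLT3 to CLDN4 (0.12), AVL9 to ZEB1 (0.06), with PTK2 next (0.06), and GABRA3 to CDH1 (0.21). GABRA3 was under the background limit on all 4 arrays. For GRHL2 the nearest were IGFBP4 (0.07) and KRT7 (0.09). The closest to VIM was CD9 (0.56), at 15.67 and 15.36 on the Li-7 mimic and control arrays and 6.39 and 4.45 on the HEP-G2 mimic and control arrays. Distances are not scaled to the span of a gene's values, 11.27 for VIM and 3.21 for CDH1, so they cannot be compared between listed genes. These distances over 4 arrays are a description.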

How the data were processed

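The authors deposited 1 table of log2-like probe-set values for 4 arrays, read here as log2. Per the submitters' processing notes, Affymetrix Expression Console and Transcriptome Analysis Console were used. The sources used here do not state normalization, background correction or log base. Values span 1.48 to 18.3.

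Of 24351 probe sets, 17709 had 1 gene name in the annotation of the platform, 0 had several and 6642 had none used here. All 17709 Entrez identifiers matched RefSeq (GRCh38.p14), whose symbols were used. For 20 genes with several probe sets the brightest stood for the gene. Tests covered the 12381 of 17687 genes whose mean was not under the 30th percentile (4.905).

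The fit was lmFit and eBayes (R 4.3.3, limma 3.58.1) with cell line and treatment, adjusted by Benjamini-Hochberg over all genes at 0.05. It leaves 1 residual degree of freedom per gene, with 5.85 prior degrees of freedom. The code was checked on simulated arrays whose variances were drawn from the fitted prior. That check does not show how well changes of the size seen here are found. The fit was repeated after median centring, quantile normalization and cyclic loess, and with other filters on low values, the mean of probe sets, other eBayes settings, an unmoderated t statistic and models without line or treatment. Differences within a line have no test and were counted at 2-fold.

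The 10 genes, 7 further lists (93 entries, 83 with a probe set, 63 tested) and the settings were chosen with earlier results of these data known. Named from each list were up to 4 genes with the largest mean mimic change and up to 4 with the largest line difference, and for each listed gene tested whose values span more than 1 unit, the 3 genes nearest in pattern, of which the text gives some. FN1, KLF4, MYL9, OVOL2, SPARC and TPM1 were named after their values were seen.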

Additional observations from a re-analysis of the deposited data

Results flagged for a closer look

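ESRP1 and SNAI2 differed from control in opposite directions in the lines. With 1 array per group no test of that difference was possible, and 38.6% of all named genes had opposite signs. The response in Li-7 minus that in HEP-G2 was -0.95 for ESRP1 (Li-7 -0.72, HEP-G2 0.23) and 0.52 for SNAI2 (Li-7 0.44, HEP-G2 -0.08), all from values under the background limit. Among genes of the other lists, the same quantity was -2.82 for KRT19, -0.50 for KRT8, -0.60 for KRT18, -1.71 for CLDN2 and -0.85 for DSP, whose values were above the limit on all 4 arrays. It was -2.75 for CLDN6, -1.79 for RBM47, 1.77 for S100A4 and 0.56 for CDH6, with values above the limit on 1 or 2 arrays. For TWIST2 (0.18) and ARHGEF11 (1.00) all values were under it. None of these differences was tested.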

How the results depend on the processing

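Cell line is a term of the model, so the mimic test is already paired within lines, with 1 array of each kind per line. The count of genes passing for the mimic, 52, was 87 after quantile normalization, 366 with a filter at the median gene, 200 with genes kept above the background limit on at least 1 array, and 411 with an intensity trend. It was 0 after cyclic loess (limma, 2376 at an unadjusted p under 0.05), 1 with the unmoderated t statistic, and 0 in a model without cell line (182 at an unadjusted p under 0.05). The causes were not tested. None of the 7 listed genes passed for the mimic under any alternative that could test it. The count for the line difference, 5563, was 1 with the unmoderated t statistic. Under it CDH1, OCLN, CLDN4, GRHL2 and ZEB1 lost their calls (adjusted p between 0.254 and 0.308), as did VIM. With treatment left out, OCLN and ZEB1 lost theirs, as did PARD6B, CLDN6, FOXA1, CALD1, ENAH, SLK and KRT8 of the other lists, and PARD6B and KRT8 also after median centring. The line difference of CDH2 turned to -0.001 after median centring (adjusted p = 0.998), and that of CDH15 to -0.024 there and -0.043 after quantile normalization. Mimic changes near 0 turned for CLDN2 (0.0021 after quantile normalization, 0.042 after cyclic loess), TWIST2 (-0.036 and -0.0039) and CDH15 (-0.0041 after quantile normalization). The number of single-line differences of the 9 measured genes at the limit, 2 of 18 at 2-fold, was 9 of 18 at 1.5-fold. Of their 36 values, 20 were above the 95th percentile of negative controls, 23 above the 90th and 15 above the 99th. The number of arrays limits the precision of every value, and changes between values under the background limit have uncertain sizes.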
